A study of Mus musculus with 32 samples.

Results

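Accessible chromatin at tRNA genes was compared between 3 livers that the labels give as "Phe31" and 3 wild-type livers. The study's description of its lines, not the label, gives this line as homozygous for a deletion of tRNA-Phe-GAA-3-1. These 6 libraries are all the liver libraries of that comparison among the 32 of the series, and every tRNA locus of its table was described, 178 that could be tested and 223 that could not. Both groups were males on the C57BL/6N background, matched for age, and kept on a 12-h light and dark cycle. The deposited list of comparisons sets 3 "Phe31" livers against 3 wild-type livers for this table, and the labels place all 6 in batch 3. Nuclei came from fresh whole tissue and were cut with the transposase of ATAC-seq, which inserts into open DNA. The mice came from lines made with 1 CRISPR-Cas9 guide whose target lies in each of the 7 tRNA-Phe genes, and each line was bred to carry 1 deleted gene. The columns of the table carry no sample number, so replicates 1 to 3 of each group bear only the number in the column name. Nothing in the labels used here says more about which animal gave which column, and the p-values measure the spread between these libraries. The word "Phe31" is kept as a label throughout, because the libraries kept signal at the 3-1 gene and lost it at the 1-1 gene, as described below.

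A tRNA carries 1 amino acid to the ribosome and reads a codon through its anticodon. tRNA genes are short and are transcribed by RNA polymerase III from promoter boxes inside the gene itself, so that the gene body and its immediate flanks lie in open chromatin when the transcription machinery is bound. Mammals hold many copies of genes with the same anticodon. Copies whose transcripts are identical are called isodecoders of 1 kind, and the mouse genes are named by amino acid, anticodon, kind and copy. Phenylalanine is read through the anticodon GAA.

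The 7 tRNA-Phe genes differ at 3 positions. They are shown because the sequences tell how far the reads of 1 copy can be told from those of another. The guide's target, found as an exact match at 7 sites of GRCm39, is printed 5′ to 3′ with the anticodon and the AGG next to the 20 guide bases in capitals.
Guide site: gcgttagactGAAgatctaaAGG
In the genes below, each of 73 bases, capitals mark the 3 positions that vary, counted from 1 at the 5′ end of the gene.
tRNA-Phe-1-1: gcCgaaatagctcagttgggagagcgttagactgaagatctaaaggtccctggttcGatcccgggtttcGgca
tRNA-Phe-3-1: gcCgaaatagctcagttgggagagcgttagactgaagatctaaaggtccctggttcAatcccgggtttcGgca
tRNA-Phe-2-1: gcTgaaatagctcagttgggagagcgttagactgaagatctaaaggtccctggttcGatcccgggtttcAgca
The gene 1-1 lies at chr5:125483119-125483191 on the minus strand, 3-1 at chr13:22067055-22067127 on the minus strand and 2-1 at chr19:11985909-11985981 on the plus strand of GRCm39. The 4 copies 1-2 to 1-5 are identical to 1-1 over the 73 bases. From 1-1 to 3-1 the difference is G57A, and from 1-1 to 2-1 it is C3T and G70A. The authors counted reads over the gene with a short flank on each side, so the flanks tell the copies apart, while a read wholly within the gene body of 1-1 to 1-5 has no base that names its copy. The authors removed alignments of low quality.

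The libraries were shallow at tRNA loci and the groups differed in depth. Over all loci the wild-type libraries held 7943, 8568 and 9329 reads and the labelled "Phe31" libraries 5576, 4719 and 4925 reads, so that wild type was 1.70 times as deep. No library of a group reached the depth of the other group, and depth and genotype cannot be told apart. Each value below is a normalised count, the reads divided by the authors' size factor for the library. Pairs of libraries of 1 group differed by about sampling noise, with a chi-square per degree of freedom between 0.808 and 1.08 over 6 pairs, and the 9 pairs between groups gave 1.37 to 1.55. No pair within a group stood apart as a repeat of the same library. In whole liver, fewer nuclei of a type and a less open site per nucleus cannot be told apart.

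The check of the labelled gene went against the label. At tRNA-Phe-3-1 the normalised counts were 13.2, 15.6 and 9.91 in wild type and 9.01, 9.62 and 10.6 in the libraries labelled "Phe31". The groups overlapped through the highest labelled and the lowest wild-type library. The means were 12.9 ± 2.87 and 9.74 ± 0.791 (SD, n = 3 each), a log2 change of -0.35 with an SE of 0.33 (limma, adjusted p = 0.633). The exact two-sided permutation p was 0.2, where 3 against 3 libraries cannot go below 0.1. Under TMM scaling (log2 change -0.44) and without wild-type replicate 3 (-0.52) or labelled replicate 3 (-0.41) the groups did not overlap. The log2 change was -0.21 both without wild-type replicate 2 and with a pseudocount of 10, with overlap in each case. By reads, 50 against 23, the labelled libraries kept 75.8% with a 95% interval of 44.1 to 126.5% (exact conditional binomial, counting error only, since PCR reads are not independent molecules).

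The gene that lost its signal was tRNA-Phe-1-1. Its normalised counts were 10.7, 6.25 and 5.66 in wild type against 2.25, 0 and 0 in the labelled libraries, and every labelled library lay below every wild-type library. A count of 0 allows up to 4.12 and 3.97 in the latter 2 libraries (3 reads each). The means were 7.54 ± 2.76 and 0.751 ± 1.30 (SD, n = 3 each), with an exact permutation p of 0.1, the smallest possible. The 29 and 2 reads gave 11.4% kept, with a 95% interval of 1.31 to 44.9%. This locus fell under the minimum mean of 10 that a locus needed to be tested. In the limma fit without that minimum, which called 13 of 379 loci or 3.43%, its log2 change was -2.48 (adjusted p = 0.00424). With 2 labelled libraries at 0 this value depends on the pseudocount of 1, and it was -4.68 with 0.1 and -0.70 with 10.

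The other copies of the family did not pass the test in either direction. tRNA-Phe-1-4, the copy with the highest mean here, had normalised counts of 26.4, 20.3 and 22.6 in wild type and 33.8, 22.0 and 21.2 in the labelled libraries. tRNA-Phe-1-2 had 18.9, 9.38 and 11.3 against 15.8, 22.0 and 9.26. In both copies 1 labelled library lay above all wild-type libraries and another below the highest of them, so that the groups overlapped. The log2 changes were 0.12 for 1-4, 0.21 for 1-2, -0.21 for 1-3 and -0.24 for 1-5, with adjusted p by limma from 0.782 to 0.850. tRNA-Phe-2-1 held 3 reads in each group. The sum over the 7 loci was 97.2, 86.0 and 79.3 in wild type and 93.5, 75.6 and 68.8 in the labelled libraries, which was 90.6% of wild type (exact permutation p = 0.4, n = 3). Leaving out 1-1, the sum over the other 6 was 86.5, 79.7 and 73.6 against 91.2, 75.6 and 68.8, or 98.2% (exact permutation p = 0.8, n = 3). The share of the family's signal held by 1-1 was 8.48% ± 2.20 in wild type and 0.803% ± 1.39 in the labelled libraries, and that of 1-4 was 26.4% ± 2.54 and 32.0% ± 3.68 (SD, n = 3 each).

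**Figure D1:**
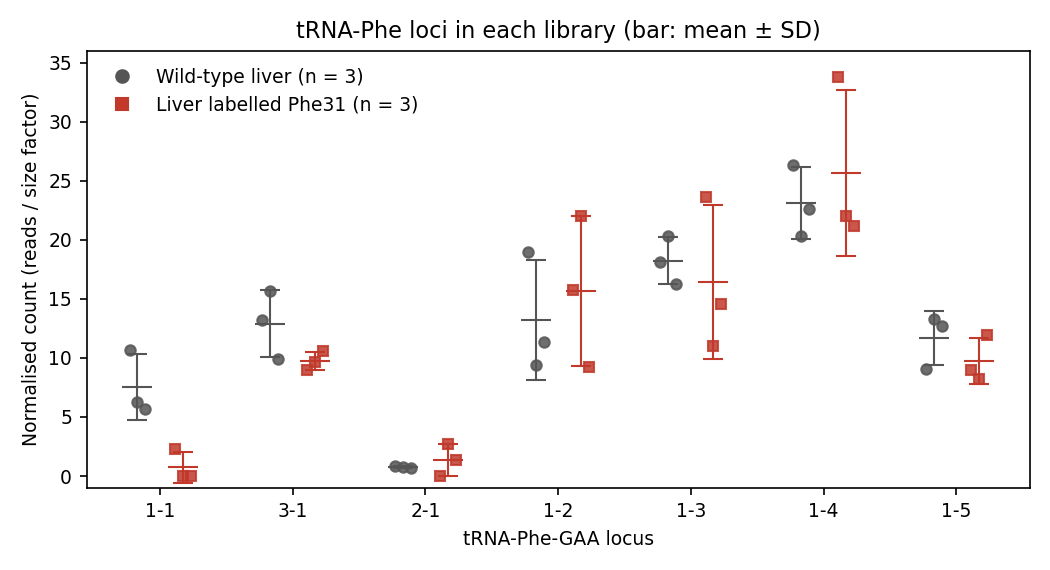
Normalised count (reads divided by the size factor) at each of the 7 tRNA-Phe-GAA loci, with 1 point for each library, circles for wild-type liver and squares for liver labelled "Phe31", and the mean ± SD (n = 3). The labelled libraries sit at 2.25 or 0 at locus 1-1 and at 9.01, 9.62 and 10.6 at locus 3-1, where the highest of them lies within the wild-type range and the other 2 just below its lowest value of 9.91.

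Across the whole table, 178 loci reached a mean normalised count of 10 and were tested. Of the rest, 22 had no read in any library and 201 fell under the minimum. In the libraries labelled "Phe31", 16 loci fell and 3 rose (limma with trend on log2 of the normalised count plus 1, adjusted p under 0.05), which is 10.7% of the loci tested, 8.99% lower and 1.69% higher. The median log2 change of the loci tested was -0.01 and the middle of the distribution ran from -0.27 to 0.17 (25th to 75th percentile). The size factors set this centre. At 42 loci or 23.6% the groups did not overlap, 30 with all labelled libraries below and 12 above. Of the 19 called loci, 18 were among these, and tRNA-Tyr-GTA-4-1 was the exception. Without 1 library at a time between 5 and 14 loci were called, without the trend term 1, by DESeq2 3, by edgeR 14, and 6 after all libraries were thinned to the reads of the shallowest. Without the minimum mean 13 of 379 loci were called, 11 of them among the 19. Under TMM scaling, which moved the median to -0.10, 21 of 22 called loci were lower.

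**Figure D2:**
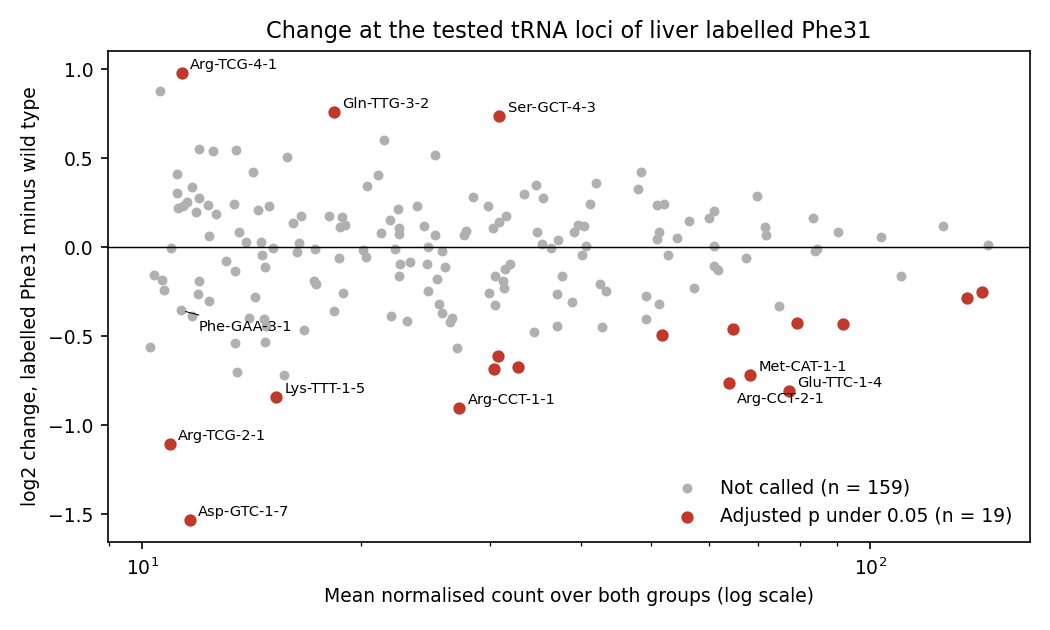
The log2 change between liver labelled "Phe31" and wild type (difference of means of log2 of the normalised count plus 1) against the mean normalised count on a log scale, for the 178 loci tested. The 19 called loci (darker points) comprise 16 below 0 and 3 above, and tRNA-Phe-GAA-3-1 lies among the uncalled loci at -0.35.

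Of the acidic amino acids, 1 of 9 glutamate and 1 of 7 aspartate loci tested were lower, near the 8.99% lower over all loci. tRNA-Glu-TTC-1-4, which delivers glutamate and was among the 10 highest loci of wild-type liver, had 103.0, 98.5 and 94.1 in wild type and 47.3, 59.1 and 62.1 in the labelled libraries. The ranges lay far apart relative to their width, and the mean fell from 98.5 ± 4.42 to 56.2 ± 7.85 (SD, n = 3), a log2 change of -0.81 (limma, adjusted p = 2.17e-07). tRNA-Asp-GTC-1-7, a copy of the aspartate gene, had 16.5, 22.7 and 14.2 against 5.63, 6.87 and 3.97. Its change of -1.53 (limma, adjusted p = 6.01e-04) was the largest of the called loci and rested on 69 and 13 reads. It reached the minimum mean of 10 only through its wild-type values. In the limma fit without that minimum its adjusted p was 0.00342. Each of the other 6 aspartate loci tested was uncalled, and the summed aspartate signal was 93.7% of wild type. The summed signal of the 8 Glu-TTC loci was 81.9% of wild type, while that of the 11 Glu-CTC loci, which read the other glutamate codon, was 117%.

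Arginine had the most calls of any amino acid, with 5 loci lower and 1 higher of 18 tested, beside 8.99% lower and 1.69% higher over all loci tested. No test was made of this. tRNA-Arg-CCT-2-1 had 85.7, 72.7 and 82.8 in wild type against 48.4, 38.5 and 55.5 in the labelled libraries (log2 change -0.76, adjusted p = 2.75e-05 by limma). tRNA-Arg-CCT-1-1 had 32.9, 35.96 and 35.4 against 27.02, 9.62 and 22.5, with the second labelled library well below the others. Its log2 change was -0.90 (limma, adjusted p = 0.00403), and 0.157 was the largest adjusted p when 1 library was left out. All 4 Arg-CCT loci tested lay below 0, as did 95 of all 178, and 2 of them were called, and the summed signal over the anticodon was 174 ± 1.92 in wild type and 113 ± 20.6 in the labelled libraries, 64.8% of wild type. The anticodon CCT reads the arginine codon AGG. The Arg-TCG anticodon was split. tRNA-Arg-TCG-1-1 went from 73.3, 72.7 and 79.3 to 59.7, 52.2 and 51.6, and tRNA-Arg-TCG-2-1 from 12.4, 17.98 and 14.2 to 9.01, 2.75 and 9.26. tRNA-Arg-TCG-4-1 rose from 7.41, 6.25 and 7.78 to 10.1, 17.9 and 18.5. For all 3 the groups did not overlap, with log2 changes of -0.46, -1.11 and 0.98 (adjusted p by limma 0.0242, 0.0242 and 0.0446). tRNA-Arg-TCG-2-1 reached the minimum mean of 10 only through its wild-type values and tRNA-Arg-TCG-4-1 only through its labelled values, so both calls depend on that minimum. tRNA-Arg-CCG-3-1 fell from 40.2 ± 4.48 to 25.3 ± 6.61 (SD, n = 3, log2 change -0.67). tRNA-Arg-ACG-1-3, the fifth highest locus of wild-type liver, had 111.2, 118.0 and 118.9 against 90.1, 108.6 and 113.7, with overlap (log2 change -0.16, adjusted p = 0.385 by limma). Without labelled replicate 2 the log2 change of tRNA-Arg-TCG-2-1 was -0.63 (adjusted p = 0.232 by limma) and that of tRNA-Arg-CCT-1-1 was -0.48. The summed signal of all 24 arginine loci was 90.9% of wild type.

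Of the other basic amino acids, 1 of 5 histidine and 1 of 11 lysine loci tested were lower, beside the 8.99% lower over all loci. tRNA-His-GTG-2-2 had 103.0, 101.6 and 111.1 in wild type and 68.7, 85.2 and 80.7 in the labelled libraries (adjusted p = 0.00621 by limma, log2 change -0.43). Its sister copy tRNA-His-GTG-2-3, the third highest locus of wild-type liver, had 138.4, 147.0 and 147.2 against 153.1, 138.8 and 145.4, with overlapping groups and a log2 change of 0.02. tRNA-Lys-TTT-1-5 had 22.2, 15.6 and 21.9 against 9.01, 10.998 and 11.9, a log2 change of -0.84 (limma, adjusted p = 0.0446). The lysine loci tested ran from -0.84 to 0.54 and the summed lysine signal was 102% of wild type.

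Tyrosine and tryptophan carry an aromatic side chain, as phenylalanine does. tRNA-Tyr-GTA-4-1 and tRNA-Tyr-GTA-3-2 had the 2 highest means of wild-type liver. The former had 147.4, 154.0 and 162.0 against 118.2, 123.7 and 148.1, where the highest labelled library reached into the wild-type range. tRNA-Tyr-GTA-3-2 had 139.2, 161.8 and 146.5 against 113.7, 121.0 and 132.2, without overlap. These were small shifts, with log2 changes of -0.25 and -0.28 (adjusted p by limma 0.0352 and 0.0233). Among the called loci those were the least changed, and neither was called by DESeq2 or, at adjusted p values of 0.0869 and 0.0520, by edgeR. A further copy, tRNA-Tyr-GTA-3-1, the fourth highest, had 131.8, 122.7 and 107.6 against 126.1, 122.4 and 145.4, with overlap and a log2 change of 0.12. The 5 highest loci of wild-type liver together held 10.4% of its signal. tRNA-Trp-CCA-3-1 went from 34.6, 44.6 and 34.0 to 25.9, 23.4 and 19.8 (log2 change -0.68, adjusted p = 0.0242 by limma).

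Of the loci for uncharged amino acids, the elongator methionine gene tRNA-Met-CAT-1-1 had 85.7, 86.0 and 83.5 in wild type and 55.2, 57.7 and 42.3 in the labelled libraries. The wild-type values lay within a narrow range and each labelled value well below it, with a log2 change of -0.72 (limma, adjusted p = 2.75e-05). The initiator methionine genes, which start translation and do not take part in elongation, did not pass the test: all 5 tested lay above 0, from 0.01 to 0.35. tRNA-Asn-GTT-3-7, tRNA-Ala-AGC-2-1 and tRNA-Thr-TGT-3-1 had log2 changes of -0.42, -0.49 and -0.61 (adjusted p by limma 0.0197, 0.0352 and 0.0471), each without overlap of the groups. The 2 raised loci other than the arginine copy were tRNA-Ser-GCT-4-3 and tRNA-Gln-TTG-3-2. The serine copy had 20.6, 26.6 and 21.9 against 38.3, 41.2 and 37.0 (log2 change 0.74, adjusted p = 0.0181 by limma). The glutamine copy had 9.88, 16.4 and 14.2 against 23.6, 26.1 and 19.8 (log2 change 0.76, adjusted p = 0.0471 by limma).

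The calls differed in how much they rested on 1 library. tRNA-Glu-TTC-1-4, tRNA-Met-CAT-1-1 and tRNA-Arg-CCT-2-1 were called in all 6 fits that left out a library, and tRNA-Asp-GTC-1-7 in the 5 in which it reached the minimum mean. At the other end, 7 of the 19 (tRNA-Thr-TGT-3-1, tRNA-Ala-AGC-2-1, tRNA-Gln-TTG-3-2, tRNA-Arg-TCG-4-1, tRNA-Lys-TTT-1-5, tRNA-Tyr-GTA-4-1 and tRNA-Arg-TCG-1-1) were called in 1 such fit each. tRNA-Glu-TTC-1-4, tRNA-Met-CAT-1-1 and tRNA-Arg-CCT-2-1 were also the 3 loci called by DESeq2, and edgeR called 14 of the 19. No called locus changed direction under any of these fits. Among loci named from earlier results of these data, tRNA-Ala-TGC-4-1 had 10.7, 13.3 and 12.0 in wild type against 2.25, 5.50 and 5.29, without overlap and under the minimum mean (log2 change -1.35 without it, adjusted p = 0.0565 by limma). tRNA-Leu-CAA-4-1 had 4.94, 10.2 and 6.37 against 19.1, 9.62 and 13.2, with overlap (log2 change 0.88, adjusted p = 0.103 by limma). tRNA-Arg-TCT-4-1 held 10 and 16 reads, or 263.5% of wild type by reads with a 95% interval of 112.4 to 649.6% (limma without a minimum, adjusted p = 0.554), and its lowest labelled library lay below all wild-type libraries. tRNA-Leu-TAA-3-1 held 12 and 5 reads, 68.6% with an interval of 18.9 to 209.3%.

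**Figure D3:**
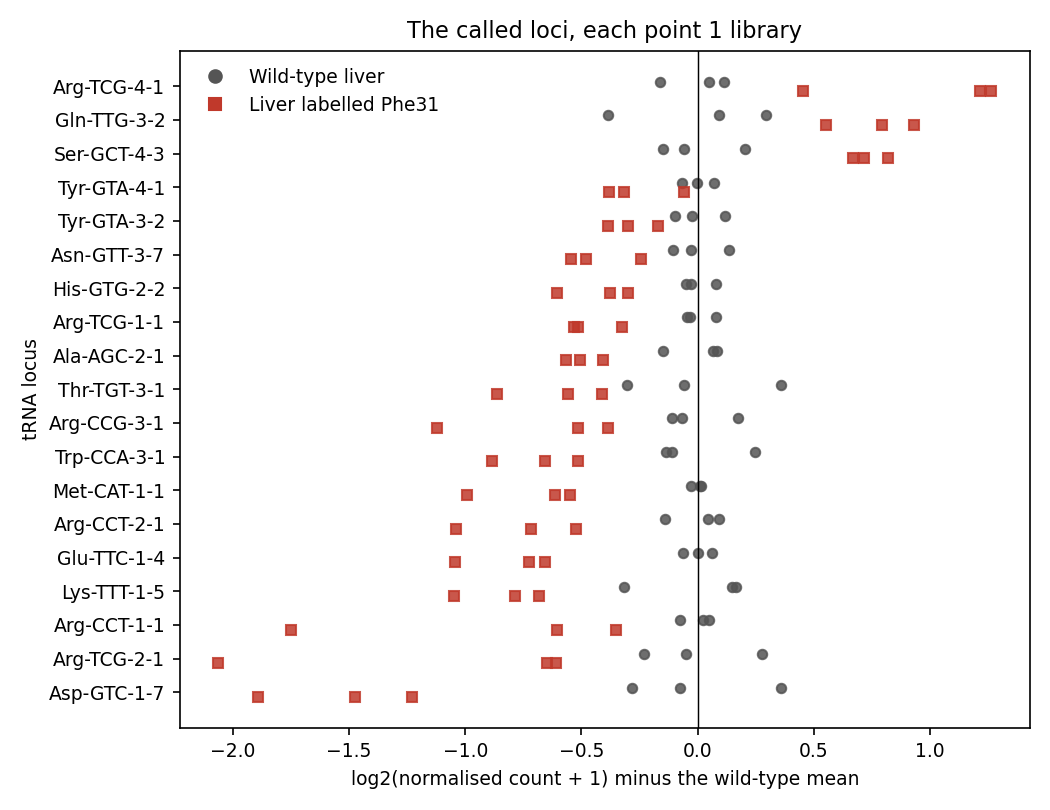
The 19 called loci, ordered by their change, with each library's log2 of the normalised count plus 1 relative to the wild-type mean of the locus. Circles are wild-type libraries and squares libraries labelled "Phe31" (n = 3 each), and the groups touch at Tyr-GTA-4-1 alone.

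By amino acid, 13 of 22 groups held at least 1 called locus. Summed over all loci of an amino acid, the signal of the labelled libraries ran from 77.8% of wild type for elongator methionine (157 ± 7.28 against 122 ± 11.1, SD, n = 3 each) and 84.5% for asparagine (216 ± 12.2 against 182 ± 6.10) to 110% for glutamine (146 ± 13.2 against 161 ± 10.9) and 115% for initiator methionine (153 ± 5.32 against 176 ± 12.0). Tryptophan, histidine, glutamate, phenylalanine and arginine lay between 88.5 and 90.9%, tyrosine at 92.8%, and cysteine, glycine and proline between 99.2 and 101%. These sums were not tested. Leucine had 18 loci tested, as many as arginine, and none was called, 15 lying above 0 with a median of 0.10 beside -0.01 for all loci tested. Its summed signal was 109% of wild type. The loci whose anticodons read a codon 1 base away from a phenylalanine codon (Leu-AAG, Leu-CAA, Leu-TAA, Ile-AAT, Val-AAC, Ser-AGA, Tyr-GTA and Cys-GCA) numbered 38 among those tested. Of these 2 were lower, both the tyrosine copies above, and none higher, against 14 lower and 3 higher of the other 140. The medians were -0.06 and -0.01.

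The same loci were set beside those of livers labelled "Phe11" (deletion of tRNA-Phe-GAA-1-1, 4 libraries against 4 wild type, from 2 batches) and brains labelled "Phe31" (3 against 3). These tables share no library with the one described here. Wild-type replicates 1 and 22 of the "Phe11" liver table differed by less than the sampling noise (chi-square per degree of freedom 0.440, against 0.744 to 1.15 for the other 5 pairs), so they were counted as 1 sample in its means. Replicates 3 and 24 had the next lowest value, 0.744, and were kept as separate samples. Whether they come from 1 sample cannot be told here, and no fit left out replicate 24. The joint fits held replicates 1 and 22 as separate libraries, and the values without replicate 22 follow beside them. Without it, replicate 24 was the only wild-type library of batch 2. A joint quasi-likelihood fit in edgeR on recovered reads tested the difference between the effects. It scaled the libraries by TMM over loci other than tRNA-Phe, not by the authors' size factors used above. Its log2 changes are therefore not on the scale of those above. The fit without a minimum is quoted where a locus fell below it. At tRNA-Phe-1-1 the log2 change was -3.07 in liver labelled "Phe31" and -2.92 in "Phe11" liver, a difference of -0.16 (adjusted p = 1.00 by edgeR, -0.08 without replicate 22). In "Phe31" brain it was 0.05, and this difference of -3.16 passed the test (adjusted p = 0.00373 by edgeR). At tRNA-Phe-3-1 the change was -0.46 in the labelled liver and -0.02 in "Phe11" liver (-0.14 without replicate 22), a difference of -0.44 (adjusted p = 0.669 by edgeR), and -0.45 and -4.24 in the fit with "Phe31" brain, where the difference of 3.79 had an adjusted p of 1.73e-08 by edgeR. The brains labelled "Phe31" had a mean of 45.8 ± 3.13 in wild type and 2.20 ± 1.095 in the knockout at 3-1 (SD, n = 3 each). tRNA-Phe-1-2 was at 0.19 in the labelled liver and -0.63 in "Phe11" liver, where its normalised count was 33.1 ± 5.26 in wild type (SD, n = 3) and 21.7 ± 3.47 in the knockout (SD, n = 4). It passed the test in the latter table with replicates 1 and 22 as separate libraries (limma, adjusted p = 0.0157), but the difference of 0.81 between the liver sets did not (adjusted p = 0.249 by edgeR, 0.345 without replicate 22).

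Further loci had large negative values in both liver sets. tRNA-Asp-GTC-1-7 had a log2 change of -1.74 in liver labelled "Phe31" and -2.24 in "Phe11" liver (adjusted p of the difference 0.669 by edgeR, 0.739 without replicate 22), and -0.08 in "Phe31" brain (difference -1.65, adjusted p = 0.00231 by edgeR). tRNA-Ala-TGC-4-1 had -1.56 and -2.35 in the 2 liver sets (adjusted p of the difference 0.625 by edgeR, no minimum, and 0.712 without replicate 22) and 0.02 in the brain (difference -1.57, adjusted p = 0.0309 by edgeR). In "Phe11" liver the normalised counts of the aspartate copy went from 65.2 ± 2.29 (SD, n = 3) to 13.96 ± 3.06 (SD, n = 4) and those of the alanine copy from 33.6 ± 4.85 (SD, n = 3) to 6.64 ± 1.84 (SD, n = 4).

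Between the 2 liver sets 5 of 177 loci (2.82%) differed in effect. In this fit all 5 were lower in the liver labelled "Phe31" than in "Phe11" liver relative to their wild types: tRNA-Lys-TTT-1-5 (-0.98 and 0.65), tRNA-Glu-TTC-1-4 (-0.89 and -0.23), tRNA-Arg-CCT-2-1 (-0.82 and -0.21), tRNA-Tyr-GTA-3-2 (-0.36 and 0.09) and tRNA-Ser-CGA-3-1 (-0.50 and 0.49), with adjusted p by edgeR from 0.0105 to 0.0457. Without wild-type replicate 22 tRNA-Lys-TTT-1-5, tRNA-Glu-TTC-1-4 and tRNA-Arg-CCT-2-1 were called, each at an adjusted p of 0.0202 by edgeR, and tRNA-Tyr-GTA-3-2 and tRNA-Ser-CGA-3-1 were at 0.0708 and 0.160. Without a minimum 10 of 381 differed (2.62%), 6 lower and 4 higher in the labelled liver. The 4 higher loci rested on few reads: tRNA-Cys-GCA-4-12 held 1 read in wild type and 7 in the labelled libraries, tRNA-Ala-AGC-10-1 held 3 and 9, tRNA-Arg-TCT-4-1 10 and 16, and tRNA-Gln-CTG-4-1 19 and 29. Without both the minimum and replicate 22, a fit added after the data were seen, 6 of 381 differed, the 3 lower loci named for that replicate and the higher loci other than tRNA-Ala-AGC-10-1 (adjusted p = 0.196 by edgeR). With the authors' size factors 1 differed, and without labelled replicate 1 none (25 loci at an unadjusted p under 0.05). Against "Phe31" brain 14 of 178 loci differed (7.87%), and 18 of 380 (4.74%) without a minimum. Besides the loci above these included tRNA-Met-CAT-1-1, both called Arg-CCT copies, tRNA-Thr-TGT-3-1 and tRNA-His-GTG-2-2. In the joint fits 17 of the 19 called loci had the same sign in "Phe11" liver, with medians of -0.70 and -0.20, beside 54.2% of all 177 loci, and 10 had the same sign in the brain, with medians of -0.69 and 0.02, beside 45.5% of all 178. Over all loci the effects had a Pearson correlation of 0.35 with "Phe11" liver (177 loci) and 0.12 with "Phe31" brain (178 loci), or 0.22 and 0.11 without tRNA-Phe-3-1 and tRNA-Asp-GTC-1-7. Without replicate 22 the "Phe11" values were 17 of 19, 55.4% of all loci and correlations of 0.36 and 0.22. Loci are not independent replicates and each table was normalised on its own.

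**Figure D4:**
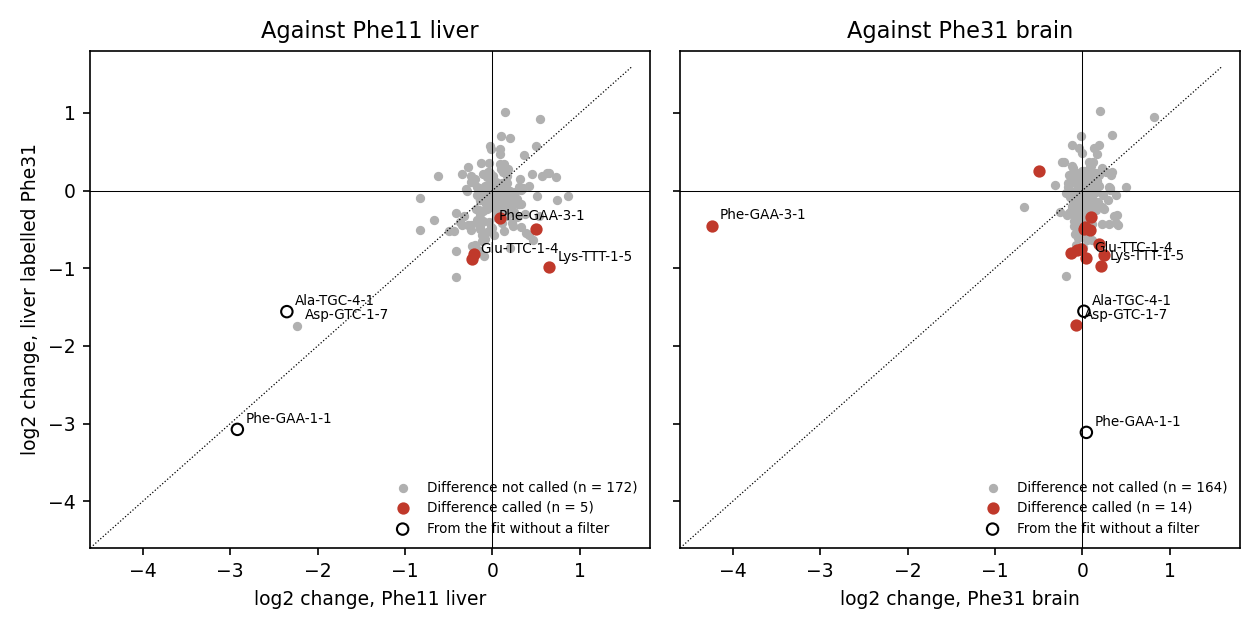
The log2 change of each locus in liver labelled "Phe31" (vertical axes) against its change in "Phe11" liver (left) and in "Phe31" brain (right), from joint edgeR fits, with the dotted line where both are equal. Phe-GAA-1-1, Ala-TGC-4-1 and Asp-GTC-1-7 lie far below 0 on both axes on the left and at about 0 on the horizontal axis on the right, where Phe-GAA-3-1 stands at -4.24.

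Peaks of accessibility around the tRNA genes were read from the authors' peak lists, on GRCm38. The consensus list of the labelled comparison held 101338 peaks with a median width of 337 bases, and 19201 of them, 18.9%, were listed by the authors as different at an FDR threshold of 0.05. Of these 12261 (12.1% of the consensus) had the lower mean in the livers labelled "Phe31" and 6940 the higher. The authors' group means are log2 concentrations over pooled libraries, so they carry no spread here. RefSeq placed 408 nuclear tRNA genes on this build, of which 176 lay in a consensus peak, against 216 in the "Phe11" liver list and 231 in the "Phe31" brain list.

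The gene of tRNA-Phe-1-1 (n-TFgaa7 in RefSeq, chr5:125406055-125406127) lay in no consensus peak of the labelled comparison. In the "Phe11" liver list it lay in a peak at chr5:125404812-125406870, with group means of 5.69 in the knockout and 7.49 in wild type, and the brain list also covered it. In the labelled comparison a smaller peak to its side, chr5:125404961-125405428, was listed at 3.53 against 5.26. The gene of tRNA-Phe-3-1 (n-TFgaa1, chr13:21882885-21882957) lay in a consensus peak at chr13:21882828-21883292 that was not listed as different. In the brain list the peak over the same gene, chr13:21882802-21883242, was the 1 listed peak, at 2.19 against 5.74. The genes 1-2 to 1-5 each lay in an unlisted peak of the labelled comparison, and 2-1 in none of the 3 lists.

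Other tRNA genes stood close to 1-1. An aspartate gene, n-TDgtc15, lay 377 bases away and an alanine gene, n-TAtgc10, 1734 bases away, and neither was in a consensus peak of the labelled comparison, although both were in the "Phe11" liver and "Phe31" brain lists. A second aspartate gene, n-TDgtc14, 2889 bases away, lay in a peak listed at 3.41 against 4.59. A second alanine gene, n-TAtgc5, 3345 bases away, was in an unlisted peak. The next tRNA genes of the chromosome were 23822874 and 24413110 bases away. Which of these RefSeq genes is tRNA-Asp-GTC-1-7 or tRNA-Ala-TGC-4-1 of the count table is not given in the sources used here.

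Listed peaks around 1-1 were lower out to 100 kb in the labelled comparison and out to 10 kb in "Phe11" liver, whose list holds fewer peaks as different (4.14% of its consensus). Within 10 kb, 3 of 7 consensus peaks were listed, all lower, with a median difference of -1.18. From 10 to 100 kb 9 of 45 were listed, again all lower, from -0.30 to -1.34, and from 100 to 1000 kb 23 of 28 listed peaks were lower. In "Phe11" liver all 5 listed peaks within 10 kb were lower, with a median of -1.74, and the 3 listed from 10 to 100 kb were all higher. Around 3-1 no peak of the labelled comparison was listed within 100 kb, among 2 consensus peaks within 10 kb and 8 from 10 to 100 kb. With 12.1% of all consensus peaks listed as lower, 12 of 52 within 100 kb of 1-1 were, and no test was made of this.

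**Figure D5:**
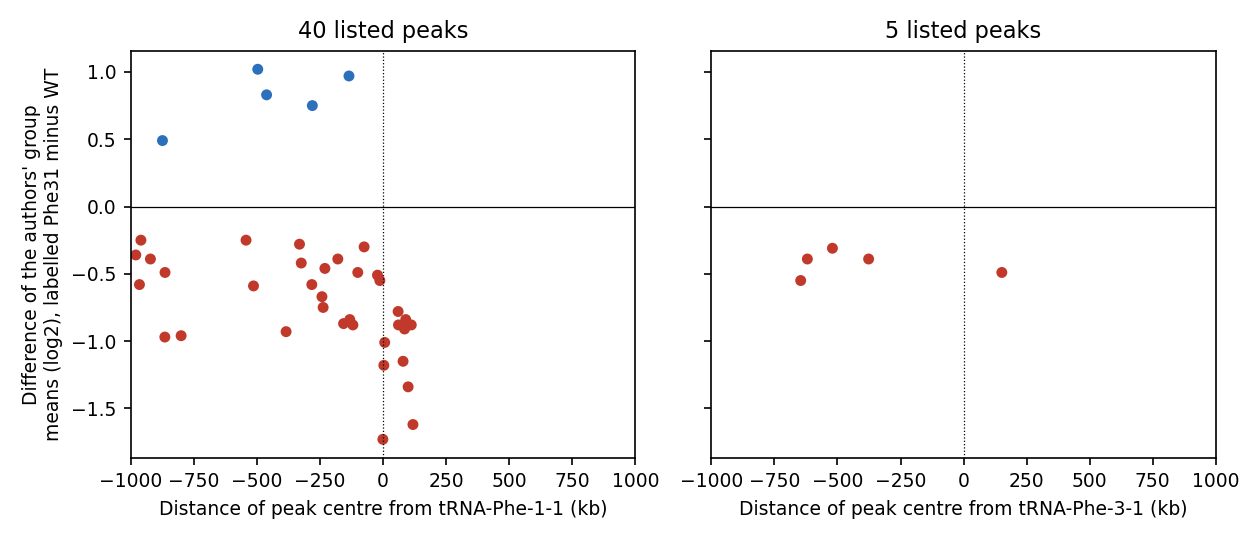
Difference of the authors' mean log2 concentrations (liver labelled "Phe31" minus wild type) at each listed peak, against the distance of its centre from tRNA-Phe-1-1 (left) and tRNA-Phe-3-1 (right) in kb. The 12 listed peaks within 100 kb of 1-1 lie below 0, down to -1.73, and none lies within 100 kb of 3-1.

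Listed peaks covered 19 tRNA genes in 16 peaks, 10.8% of the 176 genes in peaks, beside 18.9% of all consensus peaks that were listed. Of these peaks 11 were lower and 5 higher, and 63.9% of all listed peaks were lower. The Arg-CCT and Arg-TCG genes n-TRcct5, n-TRcct3 and n-TRtcg4 shared a lower peak at chr11:115412054-115414001 (8.08 against 8.33). Further arginine genes under lower peaks were n-TRcct1 (9.51 against 9.68), n-TRtcg5 (9.49 against 9.73), n-TRccg1 (7.13 against 7.60) and n-TRacg6 (9.12 against 9.30). The Glu-TTC gene n-TEttc6 was at 8.27 against 8.53. Among the higher peaks was that of the Ser-GCT gene n-TSgct4, at 5.50 against 4.77. The other 4 higher peaks covered genes for Glu-CTC (n-TEctc9, 6.44 against 5.69), Ile-AAT (n-TIaat6, 7.88 against 7.48), Thr-CGT (n-TTcgt5, 7.97 against 7.63) and Trp-CCA (n-TWcca6, 6.10 against 5.57), anticodons with no raised call in the count table. The Gln-TTG gene n-TQttg6 lay under a lower peak (8.81 against 9.19), while the called copy tRNA-Gln-TTG-3-2 was higher. Which copy each RefSeq gene is was not matched, and both sets of values come from the same reads.

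The listed peaks elsewhere give the background in which the tRNA loci changed. The most lowered peak covered Serpina3k, which encodes a serine protease inhibitor secreted by the liver, at 6.81 against 11.66, and further ones lay near Tle3, Onecut1, Serpina5 and Egfr. Among the 5 most raised peaks, 4 lay in or next to Etnppl, which encodes an enzyme that breaks down phosphoethanolamine, with the highest at 9.09 against 4.35, and 1 in Cyp3a25, a cytochrome P450 gene, at 5.60 against 1.41. All 7 hepatocyte markers with a promoter window lay in a consensus peak and none of the 4 neuronal ones did. Of the markers of other liver cells, 3 of 3 for Kupffer cells, 2 of 2 for endothelium, 2 of 3 for stellate cells, 1 of 2 for leucocytes and 0 of 1 for cholangiocytes were covered, and none of these was in a listed peak. Hepatocyte genes in listed peaks were Fgb (6.23 against 7.26), Cyp2e1 (6.02 against 7.45), Apoa1 (10.37 against 10.84) and Hnf4a, with 1 higher and 1 lower peak. Core clock genes and their output genes, whose promoters open and close with the time of day, lay in listed peaks in 10 of 11 cases, all lower, from -0.19 at Clock to -0.70 at Nr1d1. For comparison, 38.7% of all 12547 genes with a promoter in a consensus peak were in a listed peak, and 31.3% in a lower one. The part of time of day or cell composition in the tRNA result was not tested. For depth only the thinned fit was run, which called 6 loci, 5 of them among the 19.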

How the data were processed

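The authors trimmed reads with Trim Galore 0.6.4, aligned the pairs with Bowtie2 2.4.1 (build GRCm38.p6), removed duplicates with Picard 2.23.8 and kept short, nucleosome-free fragments. The tRNA tables deposited by the authors hold a signal, namely featureCounts 2.0.0 reads over a gene and its flanks divided by the library's DESeq2 1.30.0 size factor. Every value of a library was a whole multiple of 1 read (tolerance 1e-06 reads), so reads were recovered. The deposited peaks were called with Genrich 0.6 and compared with DiffBind 3.0.8, and the log2 concentrations deposited by the authors are group means. The authors' own fold changes, s-values, p-values and FDR columns were not used here beyond the listing itself, and consensus peak lists gave positions.

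In R 4.3.3, log2(normalised count + 1) was fitted with limma 3.58.1 (trend, two-sided, Benjamini-Hochberg over loci with a mean of at least 10, threshold 0.05). Interactions between tables were fitted with edgeR 4.0.16 on recovered reads, scaled by TMM over loci other than tRNA-Phe. Each genotype and batch of "Phe11" liver was a group of its own, and the batch differences were averaged. DESeq2 1.42.0 was an alternative, as were other pseudocounts, minimum means, scalings, a replicate block and leaving out each library. The fits were checked on simulated data. For the labelled comparison the limma fit recovered 82.7% of simulated log2 changes of 1 and 32.9% of those of 0.5. Of its calls 3.61% were wrong. Thinning was added after the data were seen. A tRNA gene was counted in a peak at any overlap. Named loci were the 7 tRNA-Phe loci, all called loci, the 5 highest in wild type, uncalled loci with a non-overlapping log2 change of at least 1, 5 loci from earlier results, tRNA genes next to 1-1, the 5 most changed peaks each way and up to 10 loci from each joint fit. Members and lists were chosen with earlier results of these data known. Sequences are from GRCm39, and RefSeq positions and promoter windows are of GRCm38.p6. Numbers in the column names did not pair the libraries.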

Additional observations from a re-analysis of the deposited data

Results flagged for a closer look

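These results were picked out because the effect in liver labelled "Phe31" differed from that in another tissue or line. The test was of the difference (edgeR with TMM scaling, adjusted p under 0.05 over all loci of the joint fit). Values are differences of log2 changes. Against "Phe11" liver they were -1.63 for tRNA-Lys-TTT-1-5, -0.65 for tRNA-Glu-TTC-1-4, -0.45 for tRNA-Tyr-GTA-3-2, -0.61 for tRNA-Arg-CCT-2-1 and -0.99 for tRNA-Ser-CGA-3-1. Without wild-type replicate 22 of that set, which differed from replicate 1 by less than the sampling noise, 3 of these 5 were called, and tRNA-Tyr-GTA-3-2 and tRNA-Ser-CGA-3-1 were not.

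Against "Phe31" brain the difference was 3.79 for tRNA-Phe-GAA-3-1, which kept its signal in the labelled livers and lost it in the brains of the same label. It was 0.75 for tRNA-Leu-AAG-1-2. The other 12 were all lower in the labelled liver, with differences of -1.65 for tRNA-Asp-GTC-1-7, -1.18 for tRNA-Lys-TTT-1-5, -1.09 for tRNA-Arg-CCT-1-1, -0.91 for tRNA-Glu-TTC-1-4, -0.88 for tRNA-Thr-TGT-3-1, -0.74 for tRNA-Trp-CCA-3-1, -0.71 for tRNA-Met-CAT-1-1, -0.67 for tRNA-Arg-CCT-2-1, -0.59 for tRNA-Arg-TCG-1-1, -0.51 for tRNA-His-GTG-2-2, -0.50 for tRNA-Asn-GTT-3-7 and -0.44 for tRNA-Tyr-GTA-3-2. Tissue, batch and depth differ between these sets together with the gene lost, and their parts cannot be told apart.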

How the results depend on the processing

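The 19 loci called became 1 by limma without trend, 3 by DESeq2, 6 after thinning to equal reads, and 5 to 14 without 1 library at a time (5 without wild-type replicate 3, 6 without wild-type replicate 2, 7 without wild-type replicate 1 and 11 without labelled replicate 2). Other settings gave 13 to 22, and TMM gave 1 higher and 21 lower against 3 and 16. The cause was not tested. Thinning used 1 random draw and equal library totals in place of the authors' size factors. Equal totals without thinning gave 15, so the parts of read number and scaling cannot be told apart. The replicate block gave 17, and since libraries with the same number did not deviate together (correlations of -0.01, -0.05 and 0.04) the numbers are not taken as pairs. The loci that differed from "Phe11" liver went from 5 to 1 with the authors' size factors, 10 without a minimum, and 0 to 5 without 1 library (0 without labelled replicate 1, 2 without wild-type replicate 3, 3 without "Phe11" wild-type replicate 22, or 6 without that replicate and without a minimum). Those that differed from "Phe31" brain went from 14 to 18 without a minimum, 10 with the authors' size factors, and 9 to 14 without 1 library (9 without labelled replicate 2 or 3). The summed log2 change of the 6 tRNA-Phe loci other than 1-1, -0.033, was 0.0090 with equal library totals and between -0.15 and 0.058 without 1 library. Directions reversed for loci whose change had not passed the test. Without 1 library tRNA-Phe-GAA-1-2 ran from -0.060 to 0.52, 1-3 from -0.49 to 0.030, 1-4 from -0.088 to 0.24 and tRNA-His-GTG-2-3 from -0.020 to 0.050. tRNA-Phe-GAA-1-5 was 0.052 when thinned and tRNA-His-GTG-2-3 -0.076 under TMM. Of 460 values of the 33 named loci under the alternatives, 325 kept their direction and their side of the threshold, 127 kept their direction and no longer passed, 7 reversed and 1 newly passed (tRNA-Leu-CAA-4-1 without labelled replicate 2). The labelled group had 12.7 reads per locus and library against 21.5 in wild type, and the SE of the log2 change was 0.08 at the high locus tRNA-His-GTG-2-3 and 0.35 at the low locus tRNA-Asp-GTC-1-7.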
